A study of Mus musculus with 6 samples.

Results

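The genes described here are 10 regulators and targets of the paired transcriptional coactivators YAP and TAZ: Yap1, Wwtr1, Lats2, Tead1, Amotl1, Amotl2, Cyr61 (annotated as Ccn1), Ctgf (annotated as Ccn2), Ankrd1 and Axl. They were taken by name, and all 10 were found among the 18193 genes measured. The 10 genes were read by 26 probe sets annotated to 1 of them alone, and for each gene the brightest of them on average over the 6 arrays leads. RNA came from spontaneously immortalized mouse embryonic fibroblast (MEF) clones, each hybridised to 1 Affymetrix array. Clones E, H and J came from FHL2-/- mice and clones E, F and I from wild type (WT) mice. No treatment is labelled and no age of the embryos is given, and the letter E, used for a clone of each genotype, is a name only. FHL2 is a LIM-domain adaptor protein that binds transcription factors and integrin tails. Each sample is 1 clone, and separate embryos of origin are not stated, so p-values measure only how far clones vary, which may be partly technical. Readings are listed in the clone order E, H, J for the knockout and E, F, I for the wild type throughout.

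YAP (from Yap1) and TAZ (from Wwtr1) are coactivators without DNA-binding domains of their own, and they act on genes mainly through the TEAD transcription factors. In the Hippo pathway a kinase cascade ends in LATS1 and LATS2, which phosphorylate YAP and TAZ and so hold them in the cytoplasm, and angiomotin proteins bind YAP at junctions and on actin. In fibroblasts YAP and TAZ respond to spreading, stiffness and actin tension, and transcripts such as Ctgf, Cyr61 and Ankrd1 are commonly read as their output. Much of this control acts on the protein and its location, which arrays do not measure.

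Values are log2 intensities, where a step of 1 is a doubling, and differences are knockout minus wild type with their standard error (SE) from a limma fit of all genes, n = 3 clones per genotype. A gene is said to rise or fall where its Benjamini-Hochberg adjusted p lay under 0.05. Fhl2 itself fell by 3.02 (SE 0.35, limma adjusted p = 0.00400), reading 6.01, 6.44 and 6.57 in the knockout against 8.57 to 9.88 in the wild type clones; an exact two-sided permutation test gave p = 0.1, the smallest value that 3 clones against 3 allow. The sources used here do not give whether its probe set lies in the deleted part. Fibroblast markers were read at high levels in every clone (Col1a1 13.04 to 13.56, Vim 12.74 to 13.27). Cdh1 of epithelium (2.60 to 2.90) and Ptprc of leukocytes (2.57 to 2.83) lay near each array's 10th percentile (2.69 to 2.75). Of the same epithelial and macrophage lists, Epcam (7.24 to 7.84) and Csf1r (6.87 to 7.35) lay above the array medians (4.44 to 4.54). Krt8, Krt18, Adgre1 and Cd68 lay between 3.14 and 5.05. Summed over 8 fibroblast markers, knockout clones lay between 98.3 and 98.8 and wild type clones between 96.9 and 98.9. Within that sum 3 of the 8 markers passed in opposite directions: Pdgfra rose by 1.76 (limma adjusted p = 0.0247), while Thy1 fell by 1.34 (0.0262) and Pdgfrb by 0.64 (0.0321). Of 4 endothelial markers, Tek alone passed, by 4.27 (limma adjusted p = 0.0378), at 8.36, 4.68 and 8.91 in the knockout and 2.54 to 3.31 in the wild type. The sum was 18.4 to 21.5 against 14.3 to 16.8, and Tek was the only 1 of the 4 without overlap between genotypes. Kdr differed by -0.30, at 4.85, 6.99 and 4.81 in the knockout and 5.38 to 6.70 in the wild type. Pecam1 (3.14 to 3.65) and Cdh5 (3.07 to 4.16) were read low in all clones. Of 4 epithelial markers only Epcam passed (0.43, limma adjusted p = 0.0327). None of the 4 macrophage and 4 skeletal muscle markers passed the limma test, and their sums were 16.4 to 17.5 and 16.9 to 17.5 in the knockout clones, beside wild type sums of 16.8 to 17.1 and 16.8 to 18.1. The difference between 3′ and 5′ probe sets of Gapdh lay narrowly apart by genotype (knockout -0.119 to -0.045, wild type -0.041 to 0.052). That of Actb overlapped (knockout 0.103 to 0.235, wild type 0.093 to 0.133). The part of these differences in the results was not tested. Knockout clone H stood apart from the other knockout clones: its correlation across genes was 0.964 with clone E and 0.968 with clone J, against 0.991 between E and J. Clone H alone read Xist high (9.82, against 4.69 to 5.11) and the Y-linked gene Kdm5d low (2.34, against 6.50 to 7.72). Eif2s3y (2.92) and Uty (3.96), also Y-linked, were lowest in clone H as well. For the 10 genes, differences are therefore also given without clone H. Those fits leave out the only clone with this sex-linked pattern, which cannot be told apart from other traits of clone H.

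The promoters of these genes hold one feature that the choice by name did not use directly. TEAD factors bind the core GGAATG, read as CATTCC on the other strand. RefSeq windows of 300 bases (250 before and 50 after the start, build GRCm38.p6) were held for 8 of the 10 genes, all except Tead1 and Ctgf. The core, searched on both strands, lay in a window of 7 of these 8 genes, Amotl1 being the exception, against 16.6% of all 27025 genes and 14.7% of all 32851 windows in the table. Among the comparison lists described further on, it lay in 1 of 9 other YAP/TAZ targets with a window (11.1%) and in 9 of 21 other Hippo pathway components (42.9%). It lay 123 and 210 bases before the start in Ankrd1, 103 in Cyr61, 233 in Axl, 65 in Amotl2 and 141 in Yap1. In Wwtr1 it lay 136 or 170 bases before the start, according to which of 2 overlapping windows is used, and in Lats2 it lay 5 bases after the start in one of 2 windows. Several of these genes are known as YAP/TAZ targets, so the count describes genes chosen for that knowledge, and a match is not a measured binding site. The AP-1 motif TGANTCA and the CArG box of serum response factor, also searched on both strands, lay in 0 of the 8 genes, against 8.97% and 1.81% of all genes. The 250 bases before the start are shown for 4 targets, so that their cores can be set beside the readings given below, 5′ to 3′ on the gene's strand, with the TEAD core in capitals. They lie at chr19:36119845-36120094 (Ankrd1, minus strand), chr3:145649986-145650235 (Cyr61, minus strand), chr7:25788734-25788983 (Axl, minus strand) and chr9:102717554-102717803 (Amotl2, plus strand).
Ankrd1: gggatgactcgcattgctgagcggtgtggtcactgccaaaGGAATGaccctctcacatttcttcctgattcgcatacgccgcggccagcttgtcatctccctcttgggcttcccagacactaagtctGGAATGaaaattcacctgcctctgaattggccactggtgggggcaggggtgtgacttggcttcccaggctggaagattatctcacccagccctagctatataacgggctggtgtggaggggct
Cyr61: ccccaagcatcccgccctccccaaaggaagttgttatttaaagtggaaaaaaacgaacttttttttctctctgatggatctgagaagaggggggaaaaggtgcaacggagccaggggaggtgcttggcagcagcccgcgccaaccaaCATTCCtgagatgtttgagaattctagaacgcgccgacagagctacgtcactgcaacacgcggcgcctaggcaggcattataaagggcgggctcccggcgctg
Axl: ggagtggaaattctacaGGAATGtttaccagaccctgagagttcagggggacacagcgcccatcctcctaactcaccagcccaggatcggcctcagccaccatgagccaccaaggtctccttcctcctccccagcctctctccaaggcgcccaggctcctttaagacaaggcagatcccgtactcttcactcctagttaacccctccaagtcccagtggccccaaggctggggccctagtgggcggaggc
Amotl2: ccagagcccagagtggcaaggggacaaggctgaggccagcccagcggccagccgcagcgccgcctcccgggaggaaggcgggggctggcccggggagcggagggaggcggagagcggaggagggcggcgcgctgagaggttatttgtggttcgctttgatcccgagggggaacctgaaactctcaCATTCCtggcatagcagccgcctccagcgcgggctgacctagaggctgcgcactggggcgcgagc
Ankrd1 carries the core in the same orientation at both places, Axl carries it once in that orientation, and Cyr61 and Amotl2 carry it once in the opposite one.

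Across the 10 genes, 1 fell, 0 rose and 9 did not pass, where 19.0% of all genes passed in either direction and 1820 of the 18193 fell. At an unadjusted limma p under 0.05 the counts were 0 higher and 2 lower (Ankrd1 and Axl), beside 16.7% higher and 16.5% lower over all genes. The genotypes did not overlap in 2 of the 10 (Ankrd1 and Axl), against 38.9% of all genes. All 10 are among the 9097 genes at or above the median level. Of those 9097 genes, 1259 rose, 1522 fell and 52.8% showed no overlap. The median difference over the 10 was -0.27, beside 0.04 over all genes. The knockout clones were spread more widely than the wild type clones in 9 of the 10 genes, with a median range of 0.67 against 0.29. Over all genes the median ranges were 0.32 and 0.28, and the share with a wider knockout range is not given here. Clone H was the highest knockout clone in all 10, so this spread is not separate from the pattern of clone H described below.

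**Figure D1:**
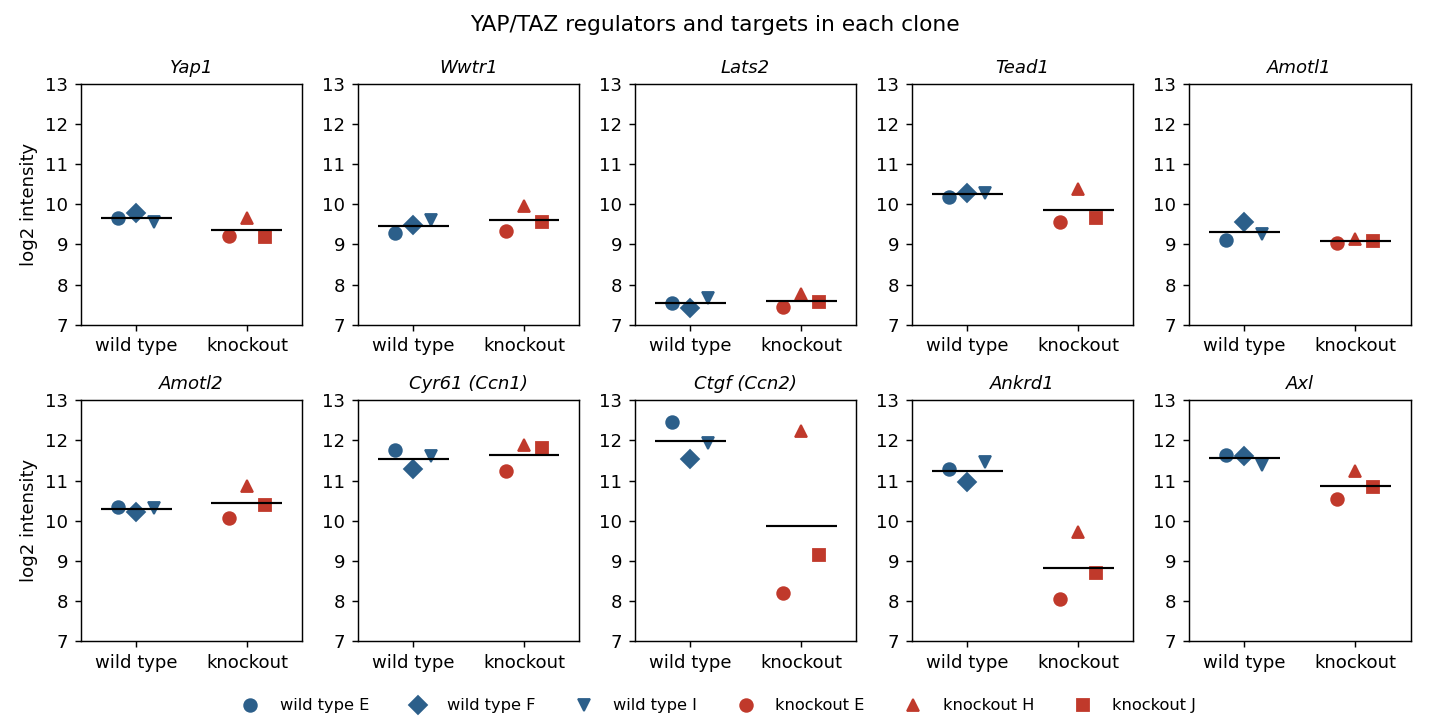
Log2 intensity (vertical axis) of the lead probe set of each of the 10 genes in the 3 wild type and 3 knockout clones; each point is 1 clone and each line a group mean. Ankrd1 and Axl show no overlap between genotypes, and in Ctgf knockout clone H (12.23) sits among the wild type clones while clones E and J lie at 8.20 and 9.16.

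Neither coactivator gene passed over all 6 clones. Yap1 was read at 9.20, 9.66 and 9.18 in the knockout and at 9.65, 9.77 and 9.57 in the wild type. Clones E and J lay below every wild type clone and clone H lay within their range. The difference of -0.32 (SE 0.16, 95% interval -0.70 to 0.06) did not pass (limma adjusted p = 0.214), and without clone H Yap1 fell by 0.48 (SE 0.12, limma adjusted p = 0.0278). The second Yap1 probe set differed by -0.77 (SE 0.23, limma adjusted p = 0.0702 over every probe set) with no overlap between genotypes. Wwtr1, the TAZ gene, was read at 9.34, 9.96 and 9.56 in knockout and 9.29, 9.48 and 9.61 in wild type clones. The groups overlapped and clone H was the highest of all 6. Its difference was 0.16 (SE 0.18, 95% interval -0.28 to 0.59, limma adjusted p = 0.606), and -0.01 without clone H. Its other probe sets gave 0.04 and 0.09.

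Tead1 encodes a DNA-binding partner of both coactivators. It was read at 9.56, 10.37 and 9.65 in knockout and 10.17, 10.28 and 10.28 in wild type clones. Clones E and J lay below all wild type clones, and clone H above them. The difference of -0.38 (SE 0.22, 95% interval -0.91 to 0.15) did not pass (limma adjusted p = 0.287), while without clone H Tead1 fell by 0.64 (SE 0.11, limma adjusted p = 0.00807). A second, dimmer probe set (4.75 to 5.82) differed by -0.64 (limma adjusted p = 0.0705) with all 3 knockout clones below the wild type clones.

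Lats2, the kinase that phosphorylates YAP and TAZ and is also a transcriptional target of theirs, showed no difference that passed. It was read at 7.44, 7.77 and 7.58 in knockout and 7.55, 7.41 and 7.67 in wild type clones, and the groups overlapped. The difference was 0.05 (SE 0.13, 95% interval -0.26 to 0.36, limma adjusted p = 0.814). Its 5 other probe sets gave -0.41 to 0.10, none of which passed. One further probe set, shared by Lats2 and a neighbouring gene symbol, was left out.

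The angiomotin-like scaffolds bind YAP and can hold it outside the nucleus. Amotl1 was read at 9.02, 9.14 and 9.09 in knockout and 9.11, 9.55 and 9.26 in wild type clones. It is the only one of the 10 genes whose knockout clones lay closer together than the wild type clones. Its difference was -0.23 (SE 0.14, 95% interval -0.55 to 0.10, limma adjusted p = 0.303), or -0.25 without clone H, and a second probe set gave -0.36 with no overlap (limma adjusted p = 0.0848). Amotl2, a common YAP/TAZ target as well as a scaffold, was read by 1 probe set at 10.06, 10.87 and 10.38 in knockout and 10.35, 10.22 and 10.31 in wild type clones. The knockout clones lay on both sides of the narrow wild type range, and the difference was 0.14 (SE 0.21, 95% interval -0.36 to 0.64, limma adjusted p = 0.690).

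Among the targets, Ankrd1 was the gene that fell. It encodes a nuclear and sarcomeric ankyrin-repeat protein, and its promoter is the one printed above with 2 TEAD cores. It was read at 8.06, 9.71 and 8.71 in the knockout and at 11.28, 10.96 and 11.46 in the wild type. Every knockout clone lay below every wild type clone, by 1.24 to 3.40 on the log2 scale over the 9 pairs of clones. Ankrd1 fell by 2.40 (SE 0.41, limma adjusted p = 0.0113), a 5.30-fold difference, from 11.2 ± 0.255 (SD, n = 3) to 8.83 ± 0.835 (SD, n = 3). Without clone H it fell by 2.85, and without wild type clone E the call was lost (-2.38, limma adjusted p = 0.0509; 0.000659 to 0.0509 over the alternatives). The second Ankrd1 probe set gave -2.35 (limma adjusted p = 0.0228 over every probe set), which no longer passed once knockout J (0.0757) or wild type E (0.0844), F (0.0611) or I (0.0730) was left out.

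Ctgf, a secreted matricellular protein, was split within the knockout group. Its single probe set read 8.20, 12.23 and 9.16 in knockout and 12.45, 11.54 and 11.93 in wild type clones. Clone H lay inside the wild type range, while clones E and J lay below it. The difference over all 3 knockout clones was -2.11 (SE 0.98, 95% interval -4.48 to 0.25) and did not pass (limma adjusted p = 0.193). Without clone H, Ctgf fell by 3.30 (SE 0.36, limma adjusted p = 0.00155), a 9.85-fold difference. Clone H was also the highest knockout clone in all 4 smooth muscle markers. Their summed log2 level was 28.3, 42.6 and 28.1 in the knockout against 39.1 to 42.7 in the wild type. Tagln, for example, read 8.14, 12.76 and 9.01 in the knockout and 12.64 to 13.25 in the wild type clones. Myh11 was unlike Ctgf in that clone H (6.89) lay above the wild type range (4.02 to 5.01), with clones E and J below it. Acta2 had the same order, though clone H (13.25) lay only just above the wild type range (12.86 to 13.24), with clones E and J at 10.71 and 10.46. None of the 4 markers passed the limma test by genotype, and their part in the Ctgf result was not tested. In RNA from whole cultures, fewer cells of a type and less RNA per cell cannot be told apart.

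Axl, a receptor tyrosine kinase for Gas6, was read at 10.54, 11.25 and 10.84 in knockout and 11.64, 11.61 and 11.39 in wild type clones. All knockout clones lay below all wild type clones, by 0.15 to 1.10. The difference of -0.67 (SE 0.19, 95% interval -1.13 to -0.21), or 1.59-fold, lay just outside the threshold (limma adjusted p = 0.0553; 0.00750 to 0.164 over the alternatives). Without clone H Axl fell by 0.86 (SE 0.15, limma adjusted p = 0.00750). Its second probe set read 2.47 to 2.58 in every clone, near the lower end of the scale.

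Cyr61, a matricellular protein of the same family as Ctgf, depended on the probe set read. The lead probe set gave 11.24, 11.89 and 11.80 in knockout and 11.76, 11.28 and 11.61 in wild type clones. The groups overlapped, with a difference of 0.10 (SE 0.21, 95% interval -0.41 to 0.61, limma adjusted p = 0.797), and a second probe set gave 0.13. The other 2 Cyr61 probe sets, which the annotation assigns to one and the same GenBank entry and which are therefore not independent readings, rose. Probe set 1457823_at read 7.78, 8.84 and 8.67 in knockout and 7.33, 6.68 and 6.28 in wild type clones. Every knockout clone lay above every wild type clone, a rise of 1.66 (SE 0.36, limma adjusted p = 0.0263 over every probe set). Probe set 1442340_x_at rose by 1.72 (SE 0.35, limma adjusted p = 0.0222). Neither passed once knockout J (0.0920 and 0.0803), wild type F (0.0834 and 0.0742) or wild type I (0.0765 and 0.0690) was left out. Of the 26 probe sets of the 10 genes, these 2 rose and the 2 of Ankrd1 fell, where 16.8% of all probe sets passed and 7.82% rose. The sources used here do not give where on the transcript the differing probe sets lie.

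**Figure D2:**
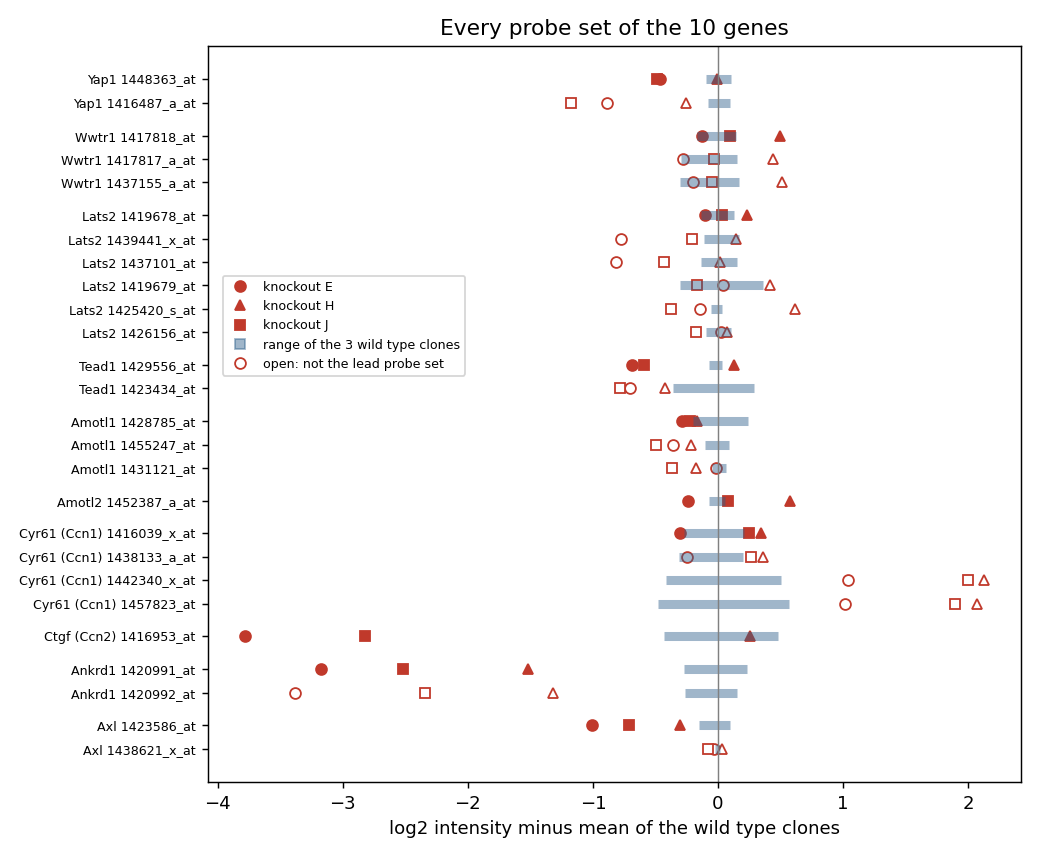
Log2 intensity of knockout clones E, H and J minus the wild type mean (horizontal axis) for each of the 26 probe sets; filled points mark the lead probe set of each gene, open points the others, and bars the range of the 3 wild type clones. The Ankrd1 probe sets lie left of the bars in every knockout clone, while 2 of the 4 Cyr61 probe sets lie right of them.

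Clone H was the highest of the 3 knockout clones in all 10 genes. Over all genes it was the highest in 35.1%, and in 41.1% of the genes at or above the median level. Among single probe sets the same held in 25 of the 26, against 35.1% of all probe sets; probe sets of 1 gene share a transcript, and the genes share the 3 arrays, so these are not independent counts. Clone H exceeded the mean of clones E and J by a median of 0.53 over the 10 genes, beside -0.03 over all genes. The excess ran from 0.09 in Amotl1 to 1.33 in Ankrd1 and 3.55 in Ctgf. In clone H, 5 of the 10 genes lay above every wild type clone, 3 within the wild type range and 2 (Ankrd1 and Axl) below it. The shares of all genes at these positions in clone H are not given here, so whether these counts are unusual is not known. The comparison of clone H with the other clones was chosen after the values were seen and, with 1 clone, has no test.

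Clones E and J together lay below every wild type clone in 6 of the 10 genes, against 24.4% of all genes, a share that is not matched for level. Without clone H, 5 of the 10 fell (Yap1, Tead1, Ctgf, Ankrd1 and Axl) and 0 rose, where 13.4% of all genes fell and 12.7% rose in the same fit. Clone H was the highest knockout clone in all 10, so leaving it out lowers every difference, and only clones E and J remain. The same 5 genes passed when arrays were weighted by their consistency, a setting that gave clone H a weight of 0.385 and the other clones 1.07 to 1.56. In that fit 27.1% of all genes passed and 13.9% fell. This weighting also reduces the part of clone H, so these fits and the pattern of clone H are not separate support for a fall. In the fit without clone H, the lead probe sets of Wwtr1, Lats2, Amotl2 and Cyr61 differed by -0.08 to -0.01. The 95% interval was widest in Cyr61, from -0.55 to 0.50. It reached from -0.36 to 0.33 in Wwtr1, -0.35 to 0.27 in Lats2 and -0.41 to 0.25 in Amotl2. For each of these 4 lead probe sets a difference within its own interval remains possible with these clones. The intervals do not cover the other Cyr61 probe sets, read without clone H in a fit of every probe set. There 1442340_x_at rose by 1.52 (limma adjusted p = 0.0261) and 1457823_at by 1.46 (0.0328), while 1438133_a_at differed by 0.01 (0.981).

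**Figure D3:**
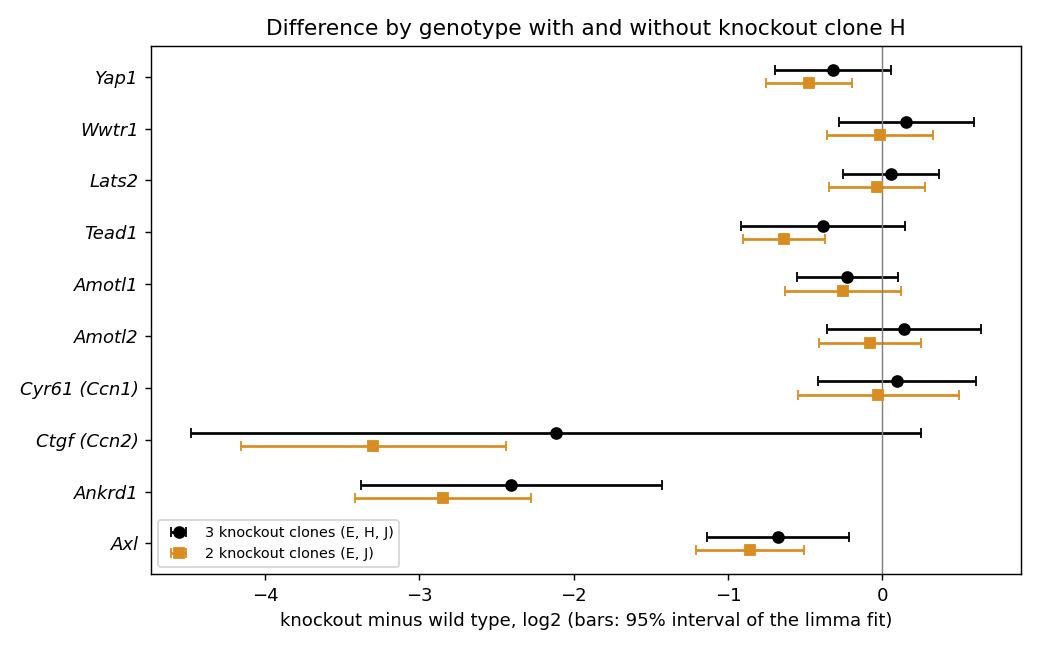
Difference by genotype (knockout minus wild type, log2, horizontal axis) of the 10 genes with 95% intervals of the limma fit, for all 3 knockout clones (circles) and without clone H (squares). Ctgf moves from -2.11 to -3.30 and its interval narrows, and the interval of Ankrd1 lies below 0 in both.

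Of 26 other Hippo pathway components listed, 25 were measured; Stk3 was not analysed here. Of the 25, 4 rose, 9 fell and 12 did not pass, where 19.0% of all genes passed and 9.04% rose, and the median difference was -0.13. Without clone H, 5 rose and 9 fell, where 12.7% of all genes rose and 13.4% fell. A pair of atypical cadherins placed upstream in the pathway rose. Fat4 rose by 3.15 (SE 0.43, limma adjusted p = 0.00633), with 10.50, 10.45 and 10.28 in knockout and 6.33, 7.27 and 8.18 in wild type clones. Without clone H, Fat4 rose by 3.13. Its ligand Dchs1 rose by 1.03 (SE 0.19, limma adjusted p = 0.0152) but did not pass when knockout E (0.0504) or J (0.0590) was left out. The kinase scaffold Sav1 rose by 1.08 (limma adjusted p = 0.0119, or 0.0523 without wild type clone E), and the kinase Taok2 by 0.79, or by 0.37 with its probe sets averaged.

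Among the genes that fell were upstream activators of LATS. Nf2, the merlin tumour suppressor, fell by 1.10 (SE 0.12, limma adjusted p = 0.00374), with 8.28, 8.06 and 8.02 in knockout and 9.17, 9.11 and 9.38 in wild type clones. Wwc1, the Kibra scaffold that acts with merlin, fell by 1.35 (SE 0.14, limma adjusted p = 0.00320); the mean of its probe sets fell by 0.74. In both genes the knockout clones, H included, lay below the wild type clones, and without clone H the falls were 1.07 and 1.29. The kinase Taok3 fell by 0.88, and Mob1b, a LATS coactivator, fell by 0.78, or by 0.52 as the mean of its probe sets. Of related genes in the same list, Mob1a (-0.004), Wwc2 (-0.13) and Taok1 (0.24) did not pass, and each overlapped between genotypes. Amot, the founding angiomotin, fell by 0.998 (SE 0.25, limma adjusted p = 0.0401), a call lost with quantile normalization repeated (0.0538), with probe sets averaged (-0.68, 0.188) and when any clone but knockout E was left out (0.0555 to 0.127). Lats1 differed by -0.43 (limma adjusted p = 0.130), and without clone H it fell by 0.61 (limma adjusted p = 0.0107). Of the other TEAD genes, Tead2 fell by 0.75 (SE 0.11, limma adjusted p = 0.00788), with 8.03, 8.26 and 8.15 in knockout against 8.77 to 8.99 in wild type clones, and by 0.81 without clone H. Tead3 and Tead4 differed by 0.29 and 0.12 and did not pass. Vgll3 and Vgll4, cofactors that bind TEADs in place of YAP, differed by -0.36 and 0.06 and did not pass.

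**Figure D4:**
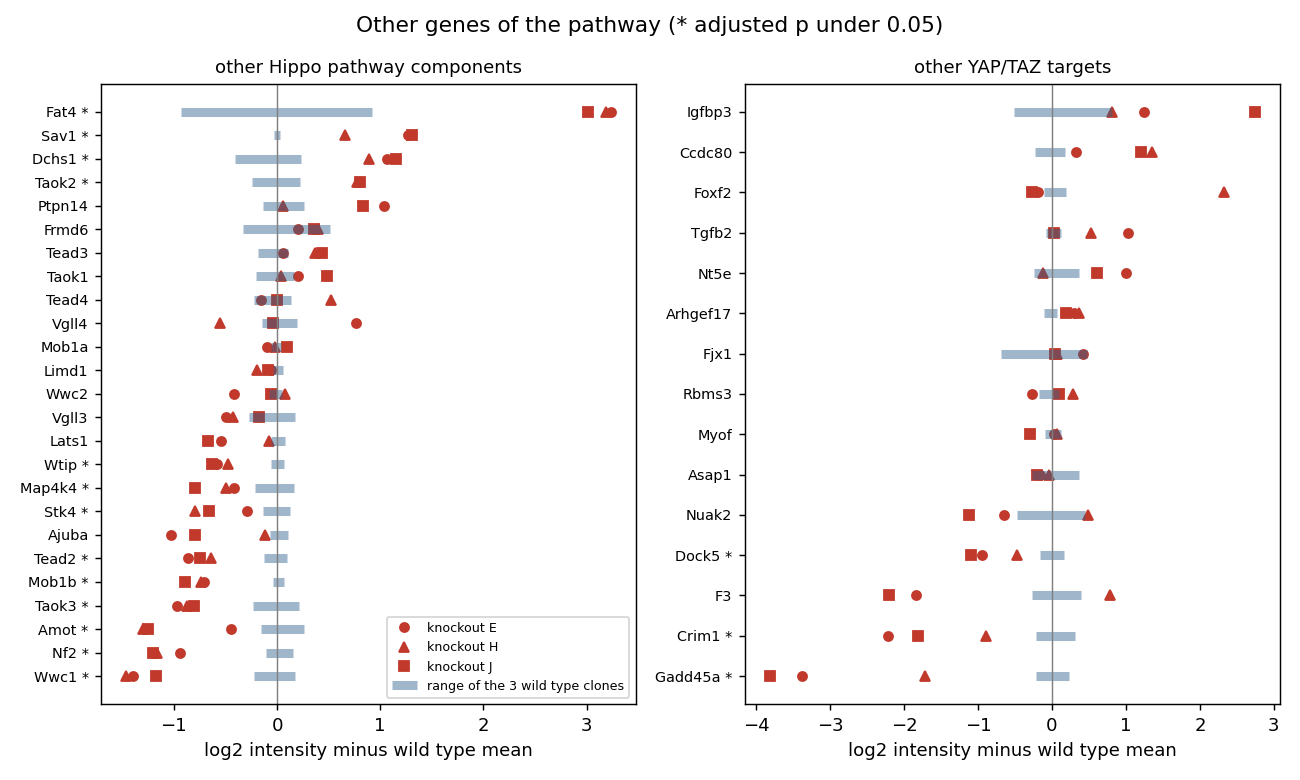
Log2 intensity of knockout clones E, H and J minus the wild type mean (horizontal axis) for 25 other Hippo pathway components (left) and 15 other YAP/TAZ targets (right); bars give the range of the 3 wild type clones and asterisks an adjusted p under 0.05. Fat4 lies about as far right in clone H as in clones E and J, while Gadd45a and Crim1 lie less far left in clone H.

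Of 15 other genes widely used as YAP/TAZ targets, 3 fell, 0 rose and 12 did not pass, with a median difference of 0.04, the same to 2 decimals as over all genes; at an unadjusted limma p under 0.05, 3 were higher and 3 lower, beside 16.7% and 16.5% of all genes. The stress-response gene Gadd45a fell by 2.97 (SE 0.52, limma adjusted p = 0.0125), with 5.28, 6.94 and 4.84 in knockout and 8.45, 8.64 and 8.89 in wild type clones. Crim1, a membrane protein that binds BMPs, read between 7.60 and 8.92 in knockout and from 9.59 to 10.12 in the wild type clones and fell by 1.64 (limma adjusted p = 0.0217). Dock5, an exchange factor for Rac, fell by 0.84 (limma adjusted p = 0.0269). The calls of Crim1 (0.0517 to 0.0856) and Dock5 (0.0580 to 0.0977) were lost whenever a clone other than knockout H was left out. In all 3 genes clone H was the knockout clone nearest to the wild type, and without it Gadd45a fell by 3.60, Crim1 by 2.01 and Dock5 by 1.02. In that fit 2 of the 15 targets rose and 4 fell, where 12.7% of all genes rose and 13.4% fell. Clone H was the highest knockout clone in 11 of these 15 targets, and in 7 of the 25 pathway components.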

How the data were processed

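RNA of 6 clones was biotin-labelled with a one-cycle 3′ kit for Affymetrix arrays of 45101 probe sets. The deposited values are log2 intensities that the authors made with RMA, per the submitters' processing notes. The sources used here do not give its version or settings. Wild type clone E is deposited with 9 decimals and the others with 3, and joint processing of all arrays is not stated. The number of arrays limits the precision.

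Control probe sets (64) and those with several symbols (932) or no symbol (9160) were left out, and each of the 18193 genes was read by its brightest probe set on average. Platform symbols were matched by gene ID to RefSeq (34741 of 34945 probe sets). The comparison used limma 3.58.1 under R 4.3.3 (lmFit and eBayes, no covariate, 4 residual degrees of freedom), with Benjamini-Hochberg adjustment over all genes at 0.05. The fit was tested on simulated data. The 10 genes, the gene lists and the tests were chosen with earlier results of these data known. Besides the 10 genes and Fhl2, genes were named by rule: the largest differences that passed, up to 6 in each direction of each list, and Lats1, Amot, Tead2, Tead3, Tead4, Vgll3 and Vgll4. Markers, Mob1a, Wwc2, Taok1 and 5 genes of the closing section were named outside this rule. No set test was run. Alternatives were another prior, 2 normalizations, a filter on low genes, 3 probe set rules, array weights, a 2-fold threshold and each clone left out; counts in the other lists and single probe sets without each clone were added after the data were seen. Plots were made in Python 3.11.15 with matplotlib 3.10.9.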

Additional observations from a re-analysis of the deposited data

How the results depend on the processing

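No paired analysis was possible because the genotypes share the single clone letter E, which the labels do not give as a pairing. The count of genes that passed (3464; 1644 higher and 1820 lower) was 1661 to 4750 when 1 clone was left out (777 to 2304 higher and 884 to 2446 lower), 1495 with a 2-fold threshold (674 higher and 821 lower) and 4926 with array weights. The count among the 10 genes (1, all lower) was 2 with the trended robust prior, array median centring or genes at or above the median level, where Axl joined Ankrd1. It was 5 with array weights and 0 to 5 when 1 clone was left out. It was 2 (1 lower and 1 higher) without _x_at, _s_at and _a_at probe sets, where Cyr61 was read by its probe set that rose (1.66). Amotl2 and Fhl2 could not be read in that setting. Among the other pathway components, the count lower (9) was 5 to 9 when 1 clone was left out and 2 with a 2-fold threshold. Among the other targets, the count lower (3) was 1 to 4 and the count higher (0) was 0 to 2 when 1 clone was left out; the latter was 1 with quantile normalization repeated, with array weights or with genes at or above the median level, and 2 for the mean of all probe sets. Fhl2 passed in every setting in which it was read (-3.42 to -2.77). With 3 clones per genotype the median SE over all genes was 0.141, and that over the 10 genes 0.199.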

Other observations

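Some of the 15 other YAP/TAZ targets differed among the knockout clones more than between genotypes; they were chosen after their values were seen, and none of them passed the limma test by genotype. F3, the tissue factor that starts coagulation, read 8.19, 10.80 and 7.82 in the knockout (E, H, J) and 9.75 to 10.41 in the wild type, so clone H lay above the wild type range and clones E and J below it. Nuak2, a kinase related to AMPK, read 6.41, 7.54 and 5.94 against 6.58 to 7.50. Foxf2, a forkhead factor of mesenchyme, read 6.64 in clone H and 4.05 to 4.50 in the other 5 clones. The opposite order was seen for Igfbp3, which read 10.43, 9.99 and 11.93 in the knockout and 8.66 to 9.99 in the wild type. Ccdc80, a matrix protein, was higher in every knockout clone (9.98, 10.99 and 10.84 against 9.41 to 9.83), with a difference of 0.96 (limma adjusted p = 0.0599).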
